A study of Mus musculus with 16 samples.

Results

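Carbonic anhydrases are the zinc enzymes that interconvert carbon dioxide and bicarbonate, and 10 genes of the family were followed through the kidney and the liver of aged mice given a knockdown vector against *Fos*, a subunit of the transcription factor AP-1. The 10 genes were *Car14*, *Car1*, *Car2*, *Car3*, *Car4*, *Car5a*, *Car5b*, *Car8*, *Car12* and *Car15*, taken by name from the 24984 genes of the count tables. They were 10 of 16 carbonic anhydrase symbols in those tables, and the other 6 were *Car6*, *Car7*, *Car9*, *Car10*, *Car11* and *Car13*. Which measured values the genes were chosen by is not stated. *Car14* was treated as chosen by its difference between shFos and NT livers in an earlier reading of these data. Every comparison that holds its liver values is therefore a description with no test. The other 9 were treated as taken by family, though they too were chosen with earlier results of these data known.

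The samples were bulk RNA of the kidney and the liver from C57BL/6 mice labelled WT and 24 months old, all female by the methods of the study. Mice received AAV8 carrying either an shRNA against *Fos* (shFos) or a non-targeting control (NT) by tail vein injection, so every animal carried a vector and no untreated group was included, and tissues were collected some months later. Each combination of tissue and treatment had 4 libraries, 16 in all. The comparisons addressed which carbonic anhydrases each tissue expressed and whether their levels differed after the *Fos* knockdown. The promoter driving the shRNA is not given in the sources used here, and AAV8 transduces hepatocytes more readily than most kidney cells. In bulk tissue, fewer cells of a type and less RNA per cell cannot be told apart.

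Carbonic anhydrase activity supplies the bicarbonate and protons on which acid secretion, bicarbonate reclamation and several liver pathways depend. The family is divided by where the enzyme sits. Cytosolic members work inside the cell, membrane-bound members face the extracellular space or the tubular fluid, mitochondrial members feed bicarbonate to urea synthesis and gluconeogenesis, and a few relatives have lost catalytic activity. In the kidney the cytosolic *Car2* and the membrane-bound forms serve proximal bicarbonate reclamation and distal acid secretion, whereas the liver is known for the cytosolic *Car3* and the mitochondrial *Car5a*.

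Reads assigned to genes numbered 14194543 to 15534665 in each kidney library and 16652150 to 18300277 in each liver library. Marker genes matched the labelled tissues. The summed level of 7 proximal tubule markers was 4464 to 11341 CPM (reads of a gene relative to all reads assigned in that library) in the kidney and 28.1 to 72.8 CPM in the liver, and that of 6 hepatocyte markers was 74107 to 201360 CPM in the liver and 120 to 337 CPM in the kidney. CPM values were scaled within each tissue by the trimmed mean of M-values (TMM). *Fos* itself was 6.71, 5.26, 4.23 and 5.29 CPM in the NT kidneys and 2.57, 4.12, 3.93 and 2.30 CPM in the shFos kidneys, with every shFos library below every NT library. In the liver *Fos* was 1.12, 2.37, 3.70 and 2.86 CPM with NT and 1.63, 1.5, 2.76 and 1.38 CPM with shFos, and these ranges overlapped. Neither *Fos* difference passed edgeR's quasi-likelihood test after adjustment over all genes. The log2 fold changes were -0.73 in the kidney (adjusted p = 0.0955) and -0.47 in the liver (adjusted p = 0.778). With DESeq2, the alternative test, *Fos* passed in the kidney (adjusted p = 0.0463), where 17.0% of the genes it tested did. It did not pass in the liver (adjusted p = 0.838 in DESeq2). NT replicate 4 stood apart from the other NT libraries in both tissues, where the chi-square statistic of its counts against each of the other 3 kidneys, divided by the degrees of freedom, was 63.6 to 67.7 and those 3 gave at most 13 among themselves. In the liver the same measure was 334 to 431, and at most 60.2 among the other NT livers. Pairs of shFos libraries gave 22.0 to 58.5 in the kidney and 19.9 to 72.5 in the liver. The most distant pair of shFos kidneys, replicates 1 and 3 at 58.5, came near the values of NT replicate 4 in the kidney. The other shFos kidney pairs were at most 48.5. The shFos differences of the 10 genes are also given without NT replicate 4.

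*Car14* was treated as the member singled out in the liver of mice given a vector against an AP-1 subunit. *Car12* had the highest ratio of NT kidney to NT liver reads among the members, with an interval that overlapped that of *Car4*. The promoters of *Car14* and *Car12* are therefore shown. Both are RefSeq windows on mm10 of 250 bases before and 50 bases after the annotated start, with the 50 transcribed bases in capitals. The *Car14* window is chr3:95904636-95904935 on the minus strand and the *Car12* window is chr9:66713436-66713735 on the plus strand.
Car14: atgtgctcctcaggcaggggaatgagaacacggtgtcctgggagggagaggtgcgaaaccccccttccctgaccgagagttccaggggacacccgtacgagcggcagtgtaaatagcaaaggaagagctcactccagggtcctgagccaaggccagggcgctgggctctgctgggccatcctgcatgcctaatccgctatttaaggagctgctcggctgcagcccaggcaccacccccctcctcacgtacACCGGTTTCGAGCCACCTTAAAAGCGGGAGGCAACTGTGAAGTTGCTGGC
Car12: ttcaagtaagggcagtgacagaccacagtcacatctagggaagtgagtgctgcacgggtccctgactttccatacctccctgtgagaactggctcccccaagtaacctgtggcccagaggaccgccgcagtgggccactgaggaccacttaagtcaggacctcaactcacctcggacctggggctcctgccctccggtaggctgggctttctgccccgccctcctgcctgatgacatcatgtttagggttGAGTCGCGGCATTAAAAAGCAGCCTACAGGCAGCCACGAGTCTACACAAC
The AP-1 site, searched as TGANTCA on both strands, occurred in neither window and in 0 of the 6 members with a promoter in the table, which were *Car14*, *Car4*, *Car5a*, *Car5b*, *Car12* and *Car15*. For *Car4* and *Car5b* the bases after the start were not found in a transcript of the GENCODE M21 annotation, so these windows may not lie at the start in use. Over all 32851 promoters of that length, 7.81% held it. The related cyclic AMP response element, searched as TGACGTCA on both strands, was likewise in 0 of the 6 and in 1.79% of all promoters. These counts say only that the letters were not in those windows.

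*Car14* lies at chr3:95897768-95904691 on the minus strand, and its 3′ end overlaps the 3′ end of *Aph1a*, a subunit of gamma-secretase encoded on the opposite strand. The annotation has 445 bases of exon in common (chr3:95897768-95898212), 17.5% of the exon bases of *Car14*. Reads were counted without regard to strand, so reads in that stretch could not be attributed to either gene by strand. *Aph1a* was 35.4 to 42.8 CPM in the NT livers and 34.3 to 41.1 CPM in the shFos livers, and these ranges overlapped. Elsewhere on chromosome 3, *Car13*, *Car1*, *Car3* and *Car2* lie side by side within 259 kb (chr3:14641727-14900770). These neighbours did not share a tissue pattern, as the levels below show.

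To ask which enzymes each tissue used, levels were first compared between genes within the NT libraries, as CPM per kb of annotated exon (mean ± SD, n = 4). In the NT kidney, *Car2*, the highly active cytosolic enzyme, had the highest level at 179 ± 25.6 CPM per kb. Its 4 libraries lay between 144 and 203 CPM per kb and did not overlap the next gene. Below it came *Car15*, a GPI-anchored enzyme of the tubule, at 102 ± 21.2 CPM per kb, and *Car4*, the GPI-anchored enzyme of the proximal tubule brush border, at 66.5 ± 4.53 CPM per kb. *Car3* followed at 49.5 ± 29.7 CPM per kb. The transmembrane enzymes came next, *Car12* at 22.7 ± 7.26 and *Car14* at 13.7 ± 4.27 CPM per kb, with the mitochondrial *Car5b* at 10.6 ± 2.93 CPM per kb. From *Car15* to *Car5b* each neighbour in this order overlapped the next in its libraries, so their order is not firm. The mitochondrial *Car5a*, at 4.49 ± 1.79 CPM per kb, lay below every library of *Car5b*. *Car8*, a relative without catalytic activity, was at 2.82 ± 0.280 CPM per kb. *Car1*, an enzyme best known from red blood cells and colon, had 0 to 2 reads in each of the 8 kidney libraries.

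The NT liver had a different order. *Car3*, a cytosolic enzyme of low activity, had the highest mean at 389 ± 305 CPM per kb. Its 4 libraries were 740, 459, 354 and 1.09 CPM per kb, so that 3 of them were above every other carbonic anhydrase and replicate 4 was below *Car5a*, *Car8*, *Car14* and *Car2* in the same library. *Car5a*, the mitochondrial enzyme that supplies bicarbonate to carbamoyl phosphate synthesis, was at 21.0 ± 12.1 CPM per kb and *Car8* at 15.2 ± 5.21 CPM per kb, and their libraries overlapped. *Car14* (5.45 ± 0.835) and *Car2* (5.19 ± 1.98 CPM per kb) overlapped each other and lay below *Car8*. *Car1* was at 1.94 ± 1.32, *Car15* at 0.501 ± 0.143 and *Car5b* at 0.311 ± 0.122 CPM per kb. *Car4* and *Car12* had 0 to 3 and 0 to 9 reads in each of the 8 liver libraries. Among the other 6 family members none exceeded 3.51 CPM per kb in a library of either tissue except *Car11* and *Car13*, which reached 4.06 and 4.36 CPM per kb in the kidney. *Car10* had 0 reads in all 16 libraries, which allows a level of up to 0.164 to 0.211 CPM by counting error alone.

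**Figure D1:**
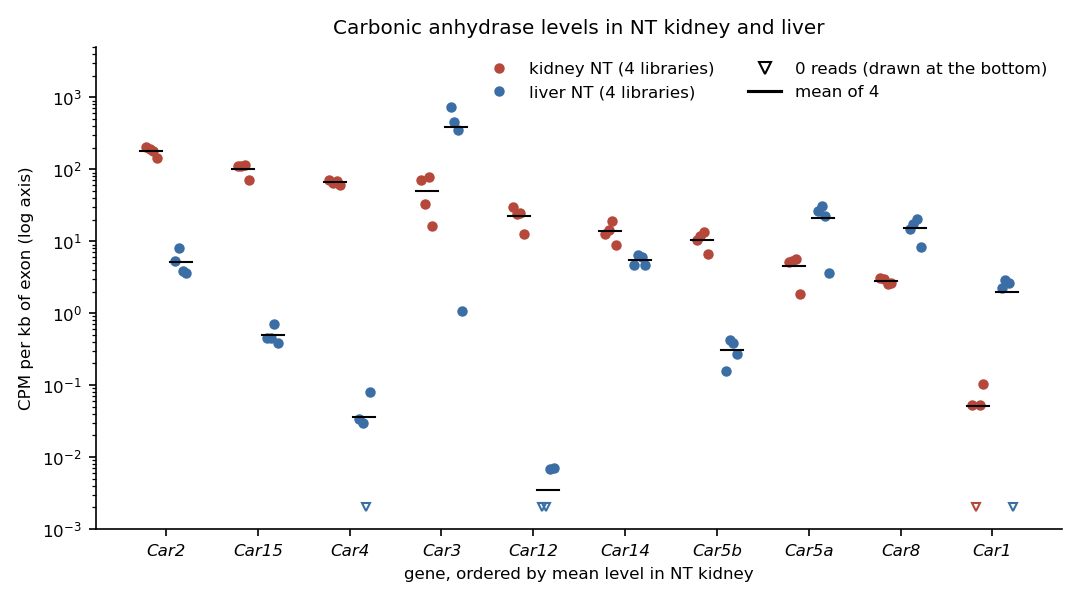
Level of each of the 10 carbonic anhydrases in the 4 NT kidney and 4 NT liver libraries, as CPM per kb of exon on a log axis, with a short line at the mean and open triangles for libraries with 0 reads. *Car2*, *Car15*, *Car4*, *Car12* and *Car5b* lie higher in the kidney and *Car3*, *Car5a*, *Car8* and *Car1* mostly higher in the liver. *Car14* lies at 8.79 to 19.0 CPM per kb in the kidney and 4.72 to 6.35 in the liver. CPM were scaled within each tissue, so the axis is not the scale of the fit between tissues.

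Comparing the NT kidney with the NT liver, all 9 genes other than *Car14* differed in edgeR's quasi-likelihood test at an adjusted p under 0.05, against a background of 64.7% of the 15421 genes tested. Of these, 5 were higher in the kidney (background 34.4%) and 4 were higher in the liver (background 30.2%). *Car4*, *Car12* and *Car1* passed the filter only through the tissue where they were high, so their calls were largely given in advance. No excess of members over all genes is read from these counts. Without replicate 4 in every group the same 9 were called. Carbonic anhydrases that were higher in the kidney were *Car2*, *Car4*, *Car5b*, *Car12* and *Car15*. *Car12* had 10483 reads over the 4 NT kidneys and 2 over the 4 NT livers. Scaled for library totals without TMM, that is a ratio of 6303 (95% exact interval 1744 to 52052, for counting error only). In edgeR's TMM-scaled fit it was 2573. *Car4* had 7961 reads against 5, a ratio of 1915 without TMM (820 to 5898) and of 863 in the fit. *Car15* differed by a log2 fold change of 6.67 (SE 0.21, adjusted p = 7.91e-13 in edgeR), *Car2* by 4.12 (SE 0.24, adjusted p = 4.88e-10) and *Car5b* by 4.08 (SE 0.27, adjusted p = 1.99e-09).

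The 4 genes that were higher in the liver were *Car1*, *Car3*, *Car5a* and *Car8*. *Car5a* differed by a log2 fold change of -3.21, kidney over liver (SE 0.50, edgeR adjusted p = 3.58e-05), and *Car8* by -3.42 (SE 0.24, adjusted p = 5.25e-09). *Car3* differed by -3.96 (SE 1.09, adjusted p = 0.00468), and by -4.07 without replicate 4. *Car1* had 168 reads over the NT livers and 4 over the NT kidneys. Without TMM that is a ratio of 34.9 (95% exact interval 13.4 to 130, for counting error only), and it was 63.1 in the TMM-scaled fit. All 168 reads came from 3 libraries, since NT liver replicate 4 had none. The mitochondrial pair therefore split by tissue, with *Car5a* higher in the liver and *Car5b* higher in the kidney. For *Car14* the log2 fold change was 0.33 with an SE of 0.25, given as a description. This fit scaled all 16 libraries together, whereas CPM were scaled within each tissue. By CPM per kb *Car14* was 13.7 in the NT kidney and 5.45 in the NT liver, so CPM do not compare directly between tissues. Of the other family members, *Car7*, *Car9*, *Car11* and *Car13* were higher in the kidney, by log2 fold changes of 1.21, 2.27, 1.71 and 1.88.

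Markers were also counted for other cells in which *Car3*, *Car1* and *Car2* are known. Adipocytes express much *Car3*, and the summed level of 7 adipocyte markers was 239 to 438 CPM in the NT kidneys and 3.76 to 19.6 CPM in the NT livers, where *Car3* was the higher. In the liver 2 of the 7 passed the filter on low counts, and *Adipoq* was at 0 to 0.318 CPM in the NT livers. Red blood cells carry *Car1* and *Car2*, but the 4 globin genes of that list were at 0 reads in every library of both tissues and *Ahsp* was not among the genes, so *Alas2* carried nearly all of its summed level. That sum was 6.88 to 25.9 CPM in the NT livers and 7.49 to 24.2 CPM in the NT kidneys, and these ranges overlapped while *Car1* was higher in the liver. The part of blood in the levels of *Car1* and *Car2* was not tested.

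The shFos and NT kidneys were then compared. After a filter on low counts 9 of the 10 genes could be tested in the kidney, all but *Car1*, and 8 of the 9 had a fitted log2 fold change above 0, that is, higher with shFos. Their median log2 fold change, shFos over NT, was 0.52, against 0.00 over the 14892 genes tested. None of the 9 passed edgeR's quasi-likelihood test after adjustment, and neither did any other gene (background 0%). At an unadjusted p under 0.05, 4 of the 9 were higher with shFos (*Car14*, *Car2*, *Car8* and *Car12*), where 17.1% of all genes were. With DESeq2, 2 of the 9 passed at an adjusted p under 0.05, *Car12* and *Car2*, against 17.0% of the genes it tested, a share close to that of the members.

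Of the membrane-bound enzymes, *Car12* was 227, 182, 185 and 95.8 CPM in the NT kidneys and 195, 270, 347 and 303 CPM in the shFos kidneys. Of the shFos libraries 3 were above every NT library, and shFos replicate 1 was below NT replicate 1. The means were 172 ± 55.1 and 279 ± 64.0 CPM (SD, n = 4), a log2 fold change of 0.69 (SE 0.26, adjusted p = 0.114 in edgeR and 0.0478 in DESeq2). *Car14* was 31.6, 36.9, 48.4 and 22.4 CPM in the NT kidneys and 34.1, 47.0, 65.3 and 69.3 CPM in the shFos kidneys. The groups overlapped, with 2 shFos libraries above every NT library. The log2 fold change of *Car14* in the kidney was 0.63 (SE 0.27, adjusted p = 0.151 in edgeR and 0.0944 in DESeq2). By contrast *Car4* was 131 ± 8.92 CPM with NT and 130 ± 13.8 CPM with shFos, a log2 fold change of -0.01 with an SE of 0.10. *Car15* was 214, 214, 218 and 135 CPM with NT and 170, 220, 221 and 224 CPM with shFos, a log2 fold change of 0.10 (SE 0.17, adjusted p = 0.714 in edgeR). In *Car15* the low value of each group came from a single library, NT replicate 4 and shFos replicate 1.

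Among the cytosolic enzymes, *Car2* was 491, 465, 432 and 348 CPM in the NT kidneys and 463, 591, 632 and 619 CPM in the shFos kidneys. Here too 3 shFos libraries were above every NT library, and shFos replicate 1 lay within the NT range. The means were 434 ± 62.1 and 576 ± 77.5 CPM, a log2 fold change of 0.41 (SE 0.14, adjusted p = 0.0975 in edgeR and 0.0352 in DESeq2). Without shFos replicate 1, *Car2* was the single member that passed edgeR's test (log2 fold change 0.46, adjusted p = 0.0272), where 27.5% of all genes did. *Car3* varied most between kidneys, at 207, 94.4, 221 and 46.1 CPM with NT and 118, 441, 202 and 74.4 CPM with shFos. The groups overlapped throughout, and the log2 fold change of 0.56 had an SE of 0.61.

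The level of *Car3* in the kidney moved with the adipocyte markers in most libraries. The summed level of the 7 markers was 376, 239, 424 and 438 CPM in the NT kidneys and 251, 1019, 322 and 145 CPM in the shFos kidneys. The shFos kidney with the highest *Car3*, replicate 2, also had the highest adipocyte sum, and 7 of the 8 kidneys stood in the same order by both measures. The exception was NT replicate 4, with the lowest *Car3* and the second highest adipocyte sum. The markers disagreed in that library. *Lep* (0 CPM) and *Plin1* (2.58 CPM) were the lowest of the NT kidneys there, while *Cfd* (229 CPM) and *Cidec* (25.2 CPM) were the highest. All 7 markers passed the filter and none was at 0 in all 8 kidneys. The fitted log2 fold changes of the markers were above 0 for 7 of 7, with shFos replicate 2 far above the rest, and 0 had an unadjusted p under 0.05. Markers of skeletal muscle, the other main source of *Car3*, summed to 4.36 to 5.29 CPM with NT and 2.23 to 3.65 CPM with shFos, and *Ckm* and *Myh4* were at 0 in every kidney. The part of adipose tissue in *Car3* was not tested.

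**Figure D2:**
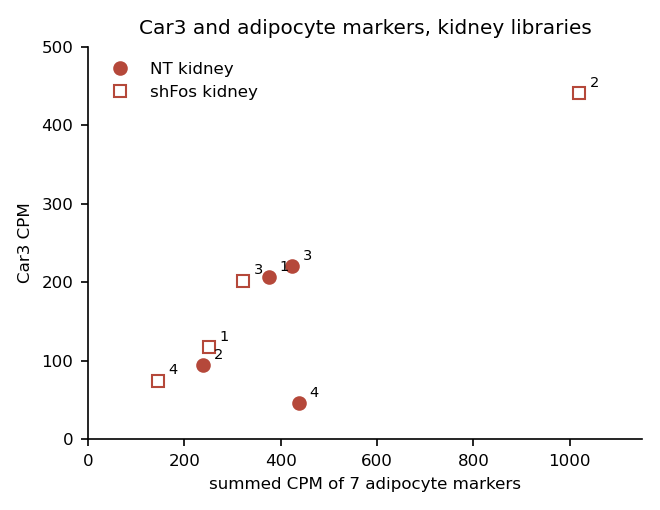
*Car3* level (CPM) against the summed level of 7 adipocyte markers (CPM) in the 8 kidney libraries, with filled circles for NT, open squares for shFos and the replicate number beside each point. The shFos replicate 2 library is highest on both axes at 1019 and 441 CPM, and NT replicate 4 lies below the others at 438 and 46.1 CPM.

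The mitochondrial enzymes both had higher means in the shFos kidneys, with groups that overlapped. *Car5b* was 67.1 ± 18.6 CPM with NT and 91.2 ± 12.2 CPM with shFos (log2 fold change 0.44, SE 0.20, adjusted p = 0.165 in edgeR), and its log2 fold change was 0.29 after a GC offset and 0.28 without NT replicate 4. *Car5a* was lower throughout, at 6.90, 7.01, 7.69 and 2.45 CPM with NT and 7.45, 10, 6.87 and 11 CPM with shFos (log2 fold change 0.55, SE 0.33, adjusted p = 0.279 in edgeR). *Car8*, the relative without activity that binds the inositol trisphosphate receptor, was the member of this set whose groups did not overlap. It was 12.0, 11.5, 9.90 and 9.99 CPM in the NT kidneys and 21.0, 14.8, 12.8 and 13.5 CPM in the shFos kidneys. Its log2 fold change was 0.52 (SE 0.17, adjusted p = 0.0887 in edgeR and 0.0524 in DESeq2), and it was 0.30 without shFos replicate 1. Over all genes tested in the kidney, 9.16% had shFos libraries all above the NT libraries. The shFos replicate 1 kidney was the highest of its group for *Car8* and the lowest of its group for *Car14*, *Car2*, *Car5b*, *Car12* and *Car15*.

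**Figure D3:**
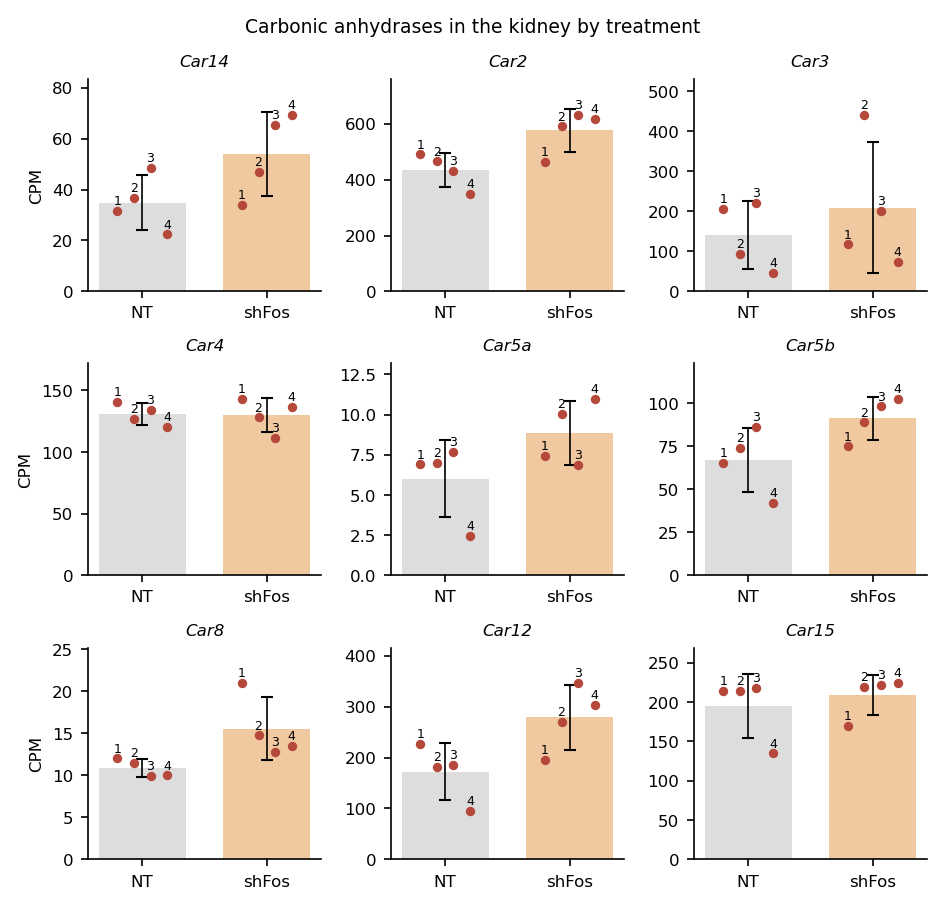
Levels of the 9 carbonic anhydrases that passed the filter in the kidney, in CPM, with bars at the mean of 4 libraries, error bars of 1 SD and a numbered point for each replicate. *Car8* has every shFos point above every NT point, and NT replicate 4 is the lowest NT point of every gene except *Car8*.

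Proximal tubule markers also had higher means in the shFos kidneys. Their sum was 7951, 6866, 8404 and 4464 CPM with NT and 8159 to 11341 CPM with shFos, ranges that overlapped slightly, and all 7 markers had a fitted log2 fold change above 0, of which 3 had an unadjusted p under 0.05 in edgeR, where 17.1% of all genes were higher at that threshold. Markers of intercalated cells, the acid-secreting cells of the collecting duct where *Car2* and *Car15* are known, summed to 717 to 881 CPM with NT and 671 to 853 CPM with shFos. Those of principal cells summed to 744 to 1058 CPM with NT and 488 to 1063 CPM with shFos. Of the 8 intercalated cell markers, 7 had a fitted log2 fold change below 0 and 1 above. An unadjusted p under 0.05 in edgeR was reached by 1 in each direction. Of the 7 principal cell markers, 6 were below 0 and 1 above, with 1 lower at that threshold. Of all genes, 14.8% were lower at it. The proximal tubule sum thus moved in the same direction as 8 of the 9 genes, while most intercalated and principal cell markers went the other way. The part of these cells in the levels of the 9 genes was not tested.

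NT replicate 4 had the lowest of the 4 NT values for 8 of the 9 genes in the kidney, where it was lowest for 38.1% of all genes. Relative to the median of the other 3 NT kidneys, it had 0.224 of the *Car3* level, 0.349 of *Car5a*, 0.517 of *Car12*, 0.568 of *Car5b*, 0.607 of *Car14*, 0.629 of *Car15*, 0.749 of *Car2* and 0.894 of *Car4*. Leaving it out lowered the log2 fold change of every member tested. *Car12* went from 0.69 to 0.49, *Car14* from 0.63 to 0.47, *Car5a* from 0.55 to 0.30 and *Car2* from 0.41 to 0.32, while *Car8* went from 0.52 to 0.48. *Car15* turned from 0.10 to -0.04. The median over the 9 genes was then 0.30, with 7 of 9 higher.

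The carbonic anhydrases outside the 10 were also compared in the kidney. The 10 were chosen with earlier results of these data known, so no contrast between them and the others is drawn. *Car9*, a transmembrane enzyme induced by hypoxia, was 7.43, 8.09, 7.10 and 5.67 CPM in the NT kidneys and 5.40, 3.59, 4.65 and 3.07 CPM in the shFos kidneys, so every shFos library was below every NT library. Its log2 fold change was -0.76 (SE 0.22, adjusted p = 0.0722 in edgeR and 0.0179 in DESeq2), and 8.04% of all genes had shFos kidneys entirely below NT. *Car13*, a cytosolic enzyme, was 5.86 ± 0.305 CPM with NT and 8.22 ± 2.22 CPM with shFos, with groups that overlapped. In all, 1 of the 4 tested was higher and 3 were lower with shFos, and only *Car9* had groups that did not overlap.

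Of the genes that work alongside carbonic anhydrases, the transporters of acid and bicarbonate moved in both directions in the kidney. All 22 on the list were tested, 8 with a fitted log2 fold change above 0 and 14 below, and 4 in each direction had an unadjusted p under 0.05 in edgeR, where 17.1% of all genes were higher and 14.8% lower. None passed after adjustment in edgeR, and 2 higher and 2 lower passed in DESeq2, where 17.0% of all genes did, so these counts were close to the background. The median log2 fold change was -0.12. *Slc4a4*, the basolateral sodium bicarbonate cotransporter of the proximal tubule, was 391 ± 52.9 CPM with NT and 792 ± 267 CPM with shFos (log2 fold change 1.02, SE 0.25, adjusted p = 0.0660 in edgeR). *Slc9a3*, the apical sodium proton exchanger of the same cells, went from 23.8 ± 4.18 to 44.0 ± 13 CPM (0.89, SE 0.23, adjusted p = 0.0660 in edgeR). *Slc4a9*, an anion exchanger of intercalated cells, was lower with shFos, at 104 ± 30.2 against 50.1 ± 20.5 CPM (-1.06, SE 0.28, adjusted p = 0.0666 in edgeR). DESeq2 also called *Atp6v1c2*, a subunit of the proton pump, at 33.3 ± 1.82 against 24.0 ± 4.75 CPM.

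Enzymes and carriers of ammonia and bicarbonate metabolism mostly had fold changes above 0 in the shFos kidney. Of the 21 on the list 18 were tested, 15 with a fitted log2 fold change above 0 and 3 below, and 7 higher and 0 lower had an unadjusted p under 0.05, where 17.1% of all genes were higher and 14.8% lower. Their median log2 fold change was 0.31, against 0.00 over all genes. None passed edgeR after adjustment and 5 passed DESeq2, where 17.0% of all genes did. The 3 with the smallest p were *Pcca*, a subunit of the biotin enzyme propionyl-CoA carboxylase, *Slc25a13*, the mitochondrial aspartate glutamate carrier, and *Mccc1*, a subunit of methylcrotonyl-CoA carboxylase. Their levels went from 102 ± 13.9 to 152 ± 24.2 CPM, from 75.0 ± 13.8 to 119 ± 22.5 CPM and from 118 ± 22.5 to 170 ± 13.5 CPM.

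In the liver, 8 of the 10 genes passed the filter, all but *Car4* and *Car12*. Of the 7 other than *Car14*, 6 had a fitted log2 fold change above 0, and the median of the 7 was 0.40 against -0.01 over the 13144 genes tested. None of the 7 passed edgeR after adjustment, where 0% of all genes did, and none had an unadjusted p under 0.05, where 6.74% of all genes did. DESeq2 called none of the 7 either, where it called 0.219% of genes. Without NT replicate 4, 4 of the 7 had a fold change above 0 and the median was 0.27, so the count of higher members rested partly on that library.

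*Car14*, a transmembrane enzyme whose active site faces outward and which is known on the hepatocyte membrane, was 12.1, 16.2, 15.2 and 12.0 CPM in the NT livers and 43.0, 26.7, 26.7 and 25.4 CPM in the shFos livers. Every shFos liver was above every NT liver, and shFos replicate 1 stood above the other 3. The means were 13.8 ± 2.12 and 30.4 ± 8.38 CPM (SD, n = 4), a ratio of 2.2 and a log2 fold change of 1.14 (SE 0.19). Without NT replicate 4 the log2 fold change was 1.06. These values were treated as those that chose the gene and stand as a description. In the kidney the change had the same sign and was smaller (0.63, SE 0.27). Whether the choice also used the kidney values is not stated, so they are not independent support for the liver change. The difference between the tissues was -0.52 on the log2 scale, kidney over liver, with an SE of 0.35. As that difference contains the liver values, it too is a description.

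Of all genes in the liver, 2.79% had shFos libraries all above the NT libraries. The 3 genes whose log2 levels followed *Car14* most closely over the 8 livers were *Kdr* (Pearson r = 0.960), an endothelial growth factor receptor, *Slco2a1* (r = 0.952), a prostaglandin transporter, and *Coq9* (r = 0.948), of coenzyme Q synthesis. These were the highest of 13144 genes, all measured in the same libraries, and no test was made. *Kdr* was 24.4 CPM with NT and 32.7 CPM with shFos on average. The 6 endothelial markers, with *Kdr* among them, summed to 160 to 226 CPM in the NT livers and 204 to 235 CPM in the shFos livers, with 4 of 6 higher and none at 0. Their part in the level of *Car14* was not tested.

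The cytosolic *Car3* had the largest spread of any member in the liver. It was 2120, 1315, 1015 and 3.12 CPM in the NT livers and 2814, 2398, 2930 and 1705 CPM in the shFos livers. The fourth NT liver had 59 reads where the other 3 had 19495 to 32132, and the remaining groups overlapped, with NT replicate 1 above shFos replicate 4. The means were 1113 ± 875 and 2462 ± 554 CPM, a log2 fold change of 1.15 with an SE of 1.14 (adjusted p = 0.816 in edgeR). Without NT replicate 4 the log2 fold change was 0.72 and the adjusted p in edgeR was 0.739. *Car2* was 12.6 ± 4.79 CPM with NT and 13.8 ± 2.82 CPM with shFos, and its log2 fold change of 0.13 (SE 0.26) became -0.02 without that library. *Car1* was 2.84, 3.58, 3.28 and 0 CPM with NT and 4.32, 3.06, 2.0 and 3.35 CPM with shFos, a log2 fold change of 0.40 that became -0.04 without NT replicate 4.

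The mitochondrial *Car5a* was 35.3, 41.7, 30.4 and 4.87 CPM in the NT livers and 52.4, 43.8, 29.7 and 53.4 CPM in the shFos livers. The groups overlapped, and again NT replicate 4 was far below the rest. The log2 fold change was 0.68 (SE 0.52, adjusted p = 0.775 in edgeR), and 0.31 without NT replicate 4. *Car5b* was scarce, at 1.97 ± 0.772 against 2.60 ± 0.569 CPM (log2 fold change 0.39, SE 0.33, and 0.32 without NT replicate 4). Without NT replicate 1 it was 0.17. *Car8* was 56.8, 66.7, 79.0 and 31.8 CPM with NT and 98.1, 76.3, 82.1 and 73.3 CPM with shFos, so that 2 shFos livers were above every NT liver. Its log2 fold change was 0.49 (SE 0.25, adjusted p = 0.734 in edgeR), and 0.27 without NT replicate 4. *Car15* was low, at 0.954 ± 0.272 against 0.919 ± 0.147 CPM, a log2 fold change of -0.06 that became -0.18 without NT replicate 4.

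**Figure D4:**
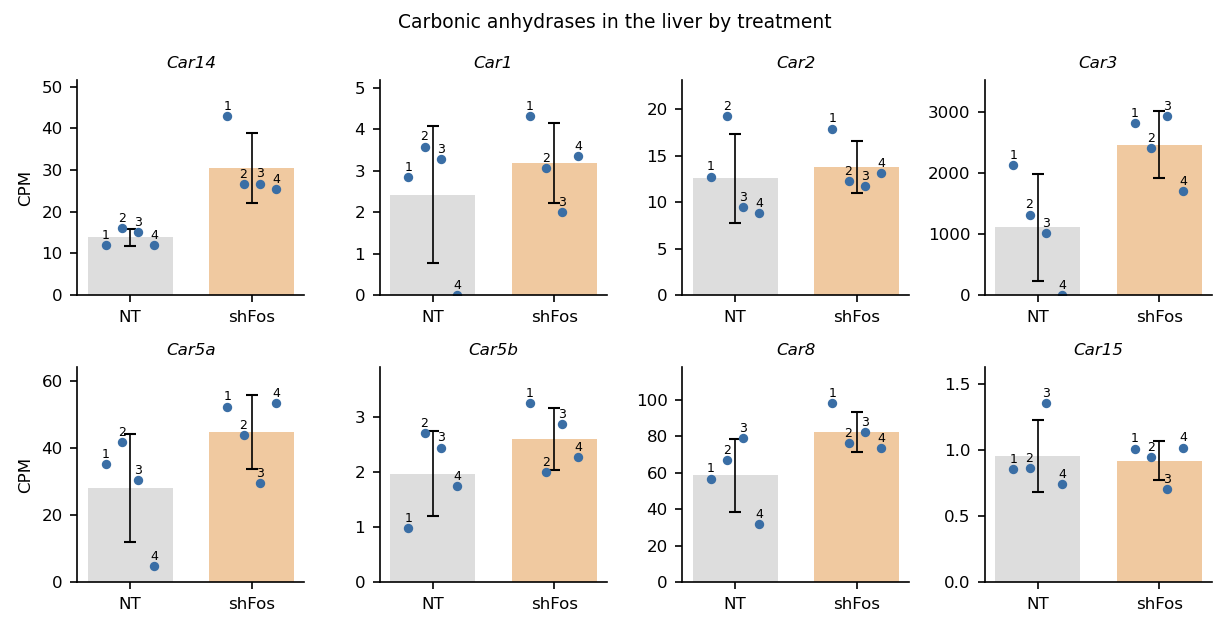
Levels of the 8 carbonic anhydrases that passed the filter in the liver, in CPM, with bars at the mean of 4 libraries, error bars of 1 SD and a numbered point for each replicate. *Car14* has every shFos point above every NT point, and NT replicate 4 lies near 0 for *Car3* (3.12 CPM), *Car1* (0 CPM) and *Car5a* (4.87 CPM).

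NT replicate 4 was the lowest of the NT livers for 6 of the 7 genes other than *Car14*, where it was lowest for 31.9% of all genes. Relative to the median of the other 3 it had 0.00238 of the *Car3* level, 0.138 of *Car5a*, 0.476 of *Car8*, 0.690 of *Car2* and 0.793 of *Car14*. The same replicate number was low for *Car3* and *Car5a* in the kidney, at 0.224 and 0.349 of the other NT kidneys. In that liver, 2 of the 8 intercalated cell markers of the kidney were detected above the other livers, *Slc4a9* at 15.1 CPM and *Atp6v0a4* at 10.3 CPM, while *Slc26a4* was at 0.16 CPM and the other 5 were at 0. The sum of the pericentral hepatocyte markers was lowest there among the NT livers, at 3563 CPM against 5403 to 7904 CPM, and 4549 to 5507 CPM in the shFos livers. The periportal sum was also lowest there, at 2282 CPM against 3070 to 4685 CPM in the other NT livers and 4685 to 6290 CPM in the shFos livers. Not every marker of these sums was low in that liver. The pericentral *Lgr5* (11.4 CPM) and the periportal *Sds* (225 CPM) were the highest of the NT livers there. *Ctsc*, also periportal, was at 220 CPM, above the lowest NT liver at 207 CPM. The other markers of both lists were lowest there among the NT livers. Of the 6 hepatocyte markers, *Fgb* (23525 CPM), *Serpina3k* (9426.5 CPM) and *Apoa1* (8895 CPM) were the highest of the NT livers in replicate 4. *Alb* (27345 CPM), *Ttr* (1803 CPM) and *Apoa2* (3113 CPM) were the lowest there. The part of cell content in the low values was not tested.

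**Figure D5:**
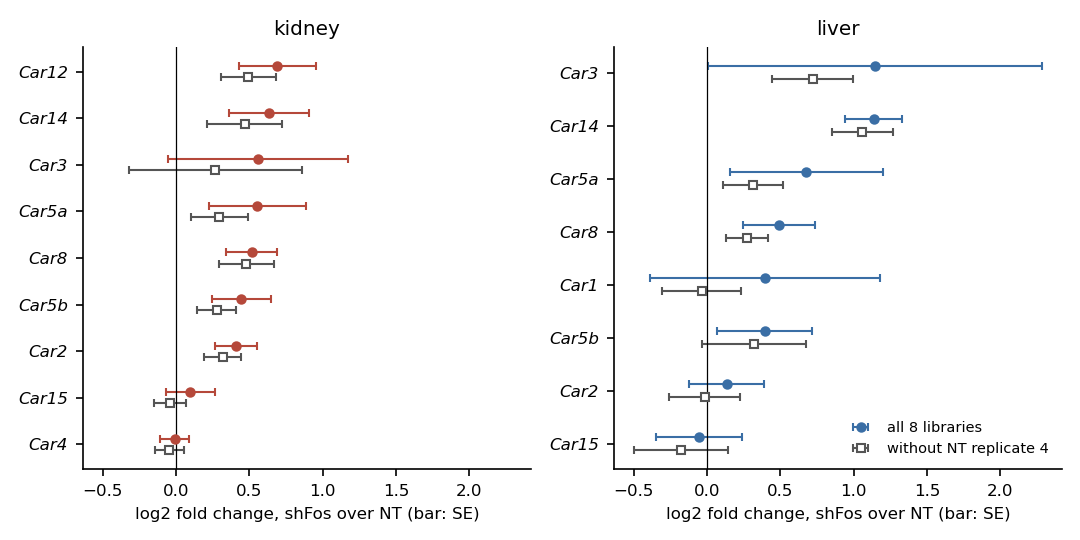
Log2 fold change, shFos over NT, with its SE for those of the 10 carbonic anhydrases that passed the filter in the kidney (left) and the liver (right), from all 8 libraries (filled circles) and without NT replicate 4 (open squares). The open squares lie to the left of the filled circles for every gene plotted, from 1.15 to 0.72 for *Car3* in the liver and from 0.52 to 0.48 for *Car8* in the kidney.

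To ask whether the treatment acted differently on the family in the 2 tissues, the difference between the changes was tested over all 16 libraries, in which all 10 genes passed the filter. None of the 9 genes other than *Car14* passed edgeR, where 0% of 15421 genes did, and none had an unadjusted p under 0.05, where 16.1% of all genes did. DESeq2 called none of the 8 of these it tested, where it called 2.26% of genes, and gave *Car1* no adjusted p. For *Car3* the difference was -0.60 with an SE of 1.37 on the log2 scale, and for *Car12* -1.60 with an SE of 1.38, so that differences of several-fold between the tissues could not be detected for those genes. For *Car2* it was 0.26 (SE 0.30) and for *Car8* 0.01 (SE 0.31).

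The partner genes were counted in the liver in the same way. Of the 22 transporters 10 were tested, 2 with a fitted log2 fold change above 0 and 8 below, and 0 had an unadjusted p under 0.05. The 3 with the smallest p were *Slc4a2* (35.8 against 40.5 CPM), *Atp6v0d2* (33.4 against 19.7 CPM) and *Slc4a9* (4.14 against 1.35 CPM). The NT mean of *Slc4a9* came mostly from replicate 4, at 15.1 CPM. Of the 21 genes of ammonia and bicarbonate metabolism 20 were tested, 17 with a fitted log2 fold change above 0 and 3 below, 3 at an unadjusted p under 0.05, where 6.74% of all genes were, and 0 after adjustment in edgeR or DESeq2. Those 3 were *Asl*, an enzyme of the urea cycle, at 412 ± 57.3 against 584 ± 54.2 CPM, *Gls2*, the liver glutaminase, at 286 ± 111 against 566 ± 108 CPM, and *Cps1*, the urea cycle enzyme that uses the bicarbonate of *Car5a*, at 1942 against 2973 CPM. Their edgeR adjusted p was 0.714 in each case. The periportal markers moved in the same direction, with 6 of 6 above 0, a median log2 fold change of 0.73 and 3 at an unadjusted p under 0.05, while 7 of 8 pericentral markers were below 0 with a median of -0.29. *Gls2* and *Pck1* are on both the periportal and the ammonia list, and the part of these zones in the list's values was not tested.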

How the data were processed

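RNA was extracted with TRIzol from frozen tissue and sequenced on libraries made by standard Illumina protocols. The authors deposited raw read counts per gene for each of the 16 libraries, made per the submitters' processing notes and the methods with Trimmomatic 0.39, HISAT2 2.2.1 on mm10 and HTSeq 0.12.4, counting without strand. Reads without a feature (13.4 to 26.7%) or ambiguous between genes (1.84 to 2.64%) were listed apart and left out of library sizes. A floor of 3 counts corresponded to 0.193 to 0.211 CPM in the kidney and 0.164 to 0.180 CPM in the liver.

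Groups came from the labels. Counts were tested with edgeR 4.0.16 in R 4.3.3 (filterByExpr, TMM, robust quasi-likelihood fit, Benjamini-Hochberg adjustment over all genes tested), within each tissue for shFos against NT and over all 16 libraries for the tissue comparisons. Changes were called at an adjusted p of 0.05. Log2 fold changes are from the fit and means are of TMM-scaled CPM. Per kb values were divided by the union of exons in GENCODE M21, so an unused exon lowers them. DESeq2 1.42.0, other normalizations and filters, GC and length offsets, a replicate block and leaving out each library were the alternatives. On simulated counts for the kidney comparison, 54 of 100 genes changed 2-fold and 91 of 100 changed 4-fold were recovered. For the liver these were 35 and 87 of 100. Genes left unchanged were called too, 10 for the kidney and 6 for the liver. The simulated libraries varied independently gene by gene, with none shifted as a whole as NT replicate 4 was. These shares therefore do not give the recovery on the real libraries.

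The labels do not say that the 4 libraries of a group came from separate animals, so p-values measure the spread between these samples. Kidney and liver NT libraries with the same number deviated together (r = 0.12, 0.37, 0.40 and 0.36), so the tissue comparison was also fitted with the pair as a block. The members and gene lists were chosen with earlier results of these data known, and the named genes were the members, the other carbonic anhydrases, *Fos*, the genes called or with the 3 smallest p in each pathway list, and the 3 genes most like *Car14*. *Aph1a*, the markers of other cell types and *Atp6v1c2* were added beside the results they touch. Promoter sequences are from RefSeq (GRCm38.p6 coordinates), with a window for 6 of the 10 members.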

Additional observations from a re-analysis of the deposited data

Results flagged for a closer look

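A sample far from the rest of its group was found in 4 of the 35 sets of 4 libraries examined. About 1.75 would be flagged by chance. No excess is read from this, since genes of 1 library can shift together and the sets include the liver values of *Car14*. *Car14* in the liver was 42.98 CPM in shFos replicate 1, against 25.4 to 26.7 CPM in the other shFos livers. *Car5a* in the kidney was 2.45 CPM in NT replicate 4, against 6.90 to 7.69 CPM in the other NT kidneys. *Car15* in the kidney was 134.7 CPM in NT replicate 4, against 214 to 218 CPM, and 170.0 CPM in shFos replicate 1, against 220 to 224 CPM. *Car3* in liver NT replicate 4 was not among these, since the other 3 NT livers were themselves spread from 1015 to 2120 CPM.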

How the results depend on the processing

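Of 533 alternative values for single genes, 511 kept their direction and side of the threshold, 7 passed the threshold where the main value had not, 1 no longer passed it (*Car11* between tissues without replicate 2), 13 changed sign and 1, with no test, moved by more than the spread between replicates (the difference of *Car14* between tissues, -0.52, was -0.087 without replicate 1). With DESeq2 in place of edgeR, 2 members passed in the kidney, where edgeR called 0, and 0 of those other than *Car14* passed in the liver. Over all genes DESeq2 called 2581 in the kidney, 28 in the liver and 281 for the difference between tissues, where edgeR called 0. The fit of all 16 libraries called 994 genes in the kidney and the fit with no filter called 3. Leaving out 1 library at a time called 0 to 1 members in the kidney and 0 to 0 in the liver. Over all genes it called 0 to 4126 in the kidney, the most without shFos replicate 1, and leaving replicate 1 out of all 4 groups called 448 for the difference between tissues. With the replicate number as a block, 0 members were called in either tissue or for the difference between tissues and 9 between the tissues, so the block changed no call. Same-numbered NT and shFos libraries did not deviate together (r = -0.17 to 0.12 in the kidney and -0.26 to 0.04 in the liver). The signs that changed were of small or imprecise differences. In the kidney *Car4* went from -0.01 to 0.0051 with no filter, 0.0062 with the GC offset, 0.069 with the GC and length offset, and lay between -0.0999 and 0.0582 with 1 library left out. With 1 library left out *Car3* lay between -0.11 and 0.85 in the kidney, the lowest lacking the second shFos kidney, and *Car15* between -0.043 and 0.15, the lowest lacking the fourth NT kidney. In the liver *Car1* lay between -0.036 and 0.63, *Car2* between -0.021 and 0.40 and *Car15* between -0.18 and 0.16, and the lowest values lacked the fourth NT liver for *Car1* and *Car15* and the first shFos liver for *Car2*. The causes were not tested. Depth limited *Car1* in the kidney and *Car4* and *Car12* in the liver, which the filter removed. The SE of *Car3* in the liver fell from 1.14 to 0.28 on the log2 scale without NT replicate 4, and in the kidney it was 0.61.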
